A study of Mus musculus with 2 samples.

Results

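The leukocyte adhesion molecules Icam1, Icam2, Vcam1, Sele, Selp and Pecam1 were followed across endothelial, fibroblast and alveolar type 2 cells of mouse lung. The genes were taken by symbol from the 2 deposited count tables, which together list 11407 genes. Of the 6 genes, Icam1, Icam2, Vcam1 and Pecam1 were listed in both tables, Selp was listed in the distal table only and Sele in neither. A table leaves out genes with few molecules, so a gene that a table does not list has no value there and was not set to 0.

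Circulating leukocytes leave the blood in steps that these proteins serve. P-selectin (Selp) and E-selectin (Sele) on endothelium catch and roll leukocytes through carbohydrate ligands. ICAM-1 and ICAM-2 bind the beta2 integrins of leukocytes, and VCAM-1 binds the alpha4 integrins, which turns rolling into firm arrest. PECAM-1 (CD31) sits at endothelial junctions, where it takes part in the passage between cells. Icam1, Vcam1 and the selectin genes can be induced by inflammatory cytokines such as TNF and interleukin 1, largely through NF-kB, whereas Icam2 and Pecam1 are largely constitutive in endothelium. ICAM-1 and VCAM-1 are also made outside vessels, ICAM-1 on alveolar epithelium and VCAM-1 on stromal cells.

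Both libraries came from lungs of mice injected intravenously with Labelling-4T1 cells and collected 7 days later. 4T1 is a mouse mammary carcinoma line, and the labelling cells release a fluorescent protein that marks cells near them. The groups were niche cells and distal lung cells, each 1 library of cells negative for the leukocyte surface protein CD45. Both therefore came from lungs that had received tumour cells, and the labels do not give the strain, age or number of mice.

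Molecules were counted as unique molecular identifiers (UMIs), which mark single captured RNA molecules at the 3′ end of transcripts. The tables held 1473 niche and 1996 distal barcodes, of which 1423 and 1987 were kept, with medians of 2975 and 1975 UMIs per kept cell. Only 7 barcodes (0.475% of the niche barcodes) were shared. With 1 library per group there was no replicate, no test between groups could be made, and a difference between the libraries cannot be told apart from a difference between 2 preparations. Intervals below are 95% counting intervals. They do not cover the spread between animals or the concentration of UMIs in a few cells. A level is a CPM value, the UMIs of a gene scaled to the total of the 10198 genes listed in both tables. Levels were compared for 1 gene between cells and never between genes.

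Cells were grouped without using the 6 genes and named by their markers. Endothelial-like cells numbered 497 in the niche and 1307 in distal lung, fibroblast-like cells 760 and 365, and alveolar type 2-like cells 17 and 216. All 10 endothelial class markers had UMIs in endothelial-like cells of both libraries, and all 9 mesenchymal class markers in fibroblast-like cells. That alone does not set the classes apart, since all 10 endothelial class markers also had UMIs in fibroblast-like cells. Their levels there are given below. General capillary-like cells formed 4 clusters, told apart by leading genes: Sema3c Gpihbp1 (128 niche and 498 distal cells), Tmem100 Prr18 (32 and 47), Serpina3g Gbp7 (71 and 188) and Fabp4 Trp53i11 (43 and 110). Other endothelial clusters were Car4 capillary-like (93 and 124), arterial-like (49 and 232), venous-like (17 and 86) and lymphatic-like (34 and 11), and a cluster led by Ubd and Ido1 that no subtype list fitted (30 and 11). Fibroblast clusters were matrix fibroblast-like (192 and 35), Tcf21 alveolar fibroblast-like (70 and 126), alveolar myofibroblast-like (187 and 108), adventitial fibroblast-like (129 and 82) and a cluster led by Cxcl9 and Timp1 (182 and 14). These numbers can be set by the sort and by dissociation. Of the 10 immune markers, 4 were listed in both tables, and their summed level in endothelial-like cells was 5.84 (niche) and 3.11 (distal), whereas the 51 and 26 immune-like cells reached 3903 and 2704.

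Icam1 lies on chromosome 9 (GRCm38, 21015985 to 21028817, plus strand), where the antisense gene Gm47079 overlaps it, and Vcam1 on chromosome 3 (116109949 to 116129688, minus strand), overlapped by the antisense gene Gm43109. Icam2 (106377656 to 106388075) and Pecam1 (106654217 to 106750628) are both on the minus strand of chromosome 11, and Selp (164115264 to 164150026) and Sele (164048234 to 164057677) are both on the plus strand of chromosome 1. The promoter of Icam1 is shown because Icam1 and genes of the NF-kB and interferon pathways are both measured below. The 250 bases before the RefSeq start of Icam1 (GRCm38.p6, chr9:21015690-21015939, plus strand) read as follows, with matches to GGNNNTTCC (an NF-kB-like motif) and TTCNNNGAA (a STAT-like motif) on either strand in capitals.
Icam1: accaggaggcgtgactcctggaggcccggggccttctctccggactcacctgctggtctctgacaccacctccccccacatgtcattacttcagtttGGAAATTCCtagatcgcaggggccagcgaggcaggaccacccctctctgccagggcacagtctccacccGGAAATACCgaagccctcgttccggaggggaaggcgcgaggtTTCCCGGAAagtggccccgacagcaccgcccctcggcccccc
The NF-kB-like letters stood at -153 to -145 and at -84 to -76 from the start and the STAT-like letters at -42 to -34, with no overlap between them. Among 32851 promoter windows of the same length, 15.7% held the NF-kB-like and 7.02% the STAT-like letters. The motifs were chosen with the sequence in view, and a match is a description of letters, not of a bound site.

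In endothelial-like cells Icam1 was a little lower in the niche and differed far more between vessel types than between the libraries. It stood at 318 (95% interval 289 to 350) in the niche library, from 436 UMIs, and at 400 (376 to 426) in distal lung, from 1031 UMIs. The log2 ratio of niche over distal was -0.33 (-0.50 to -0.17). Cells with at least 1 Icam1 UMI were 39.6% (197 of 497) in the niche and 35.3% (461 of 1307) in distal lung. At an equal depth of 1200 UMIs per cell the shares were 25.2% and 26.8%. Immune-like cells had an Icam1 UMI in 7.84% and 11.5% of cells, at medians of 2014 and 1951 UMIs. The medians were 2341 and 1715 in endothelial-like cells. Transcripts that immune-like cells make themselves were not told apart from free RNA, so these shares are no measured floor.

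Venous-like and Car4 capillary-like cells had the highest endothelial levels of Icam1 in the distal library, and in the niche they were joined by the Ubd Ido1 cluster. The venous-like level was 1164 (874 to 1519) in the 17 niche cells and 1113 (968 to 1274) in the 86 distal cells. The Car4 capillary-like level was 622 (531 to 724) and 930 (822 to 1048). The Ubd Ido1 cluster stood at 578 (455 to 723) in the niche, which overlapped the Car4 capillary-like level, and it held 17.4% of the niche endothelial Icam1 UMIs in 6.04% of the cells. In the distal library the venous-like and Car4 capillary-like levels overlapped within their counting intervals and lay above all other endothelial clusters. Arterial-like cells stood at 220 and 245, and the 4 general capillary-like clusters between 85.1 and 273 (niche) and between 205 and 369 (distal). The lowest niche level was 23.9 in lymphatic-like cells (3 UMIs in 34 cells).

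The niche to distal ratio of Icam1 was below equality in every endothelial cluster with at least 20 cells in both libraries. It was -0.61 (-1.21 to -0.08) in Sema3c Gpihbp1, -0.79 (-1.44 to -0.22) in Serpina3g Gbp7 and -0.58 (-0.87 to -0.30) in Car4 capillary-like cells. In Tmem100 Prr18 general capillary-like cells it was -1.83 (-3.04 to -0.87), from 10 niche UMIs in 32 cells and 44 distal UMIs in 47 cells. The intervals of the Fabp4 Trp53i11 cluster (-0.42, -1.03 to 0.13) and of arterial-like cells (-0.14, -0.83 to 0.46) held equality. When only cells with 1000 or more genes were used, the ratio of the Sema3c Gpihbp1 cluster turned to 0.20 (27 and 48 UMIs). A value is called here when it is at least 2-fold and its interval excludes equality: Tmem100 Prr18 was the only one of these 6 clusters with a call for Icam1, where 1.68% of 2328 genes were called lower in the niche.

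**Figure D1:**
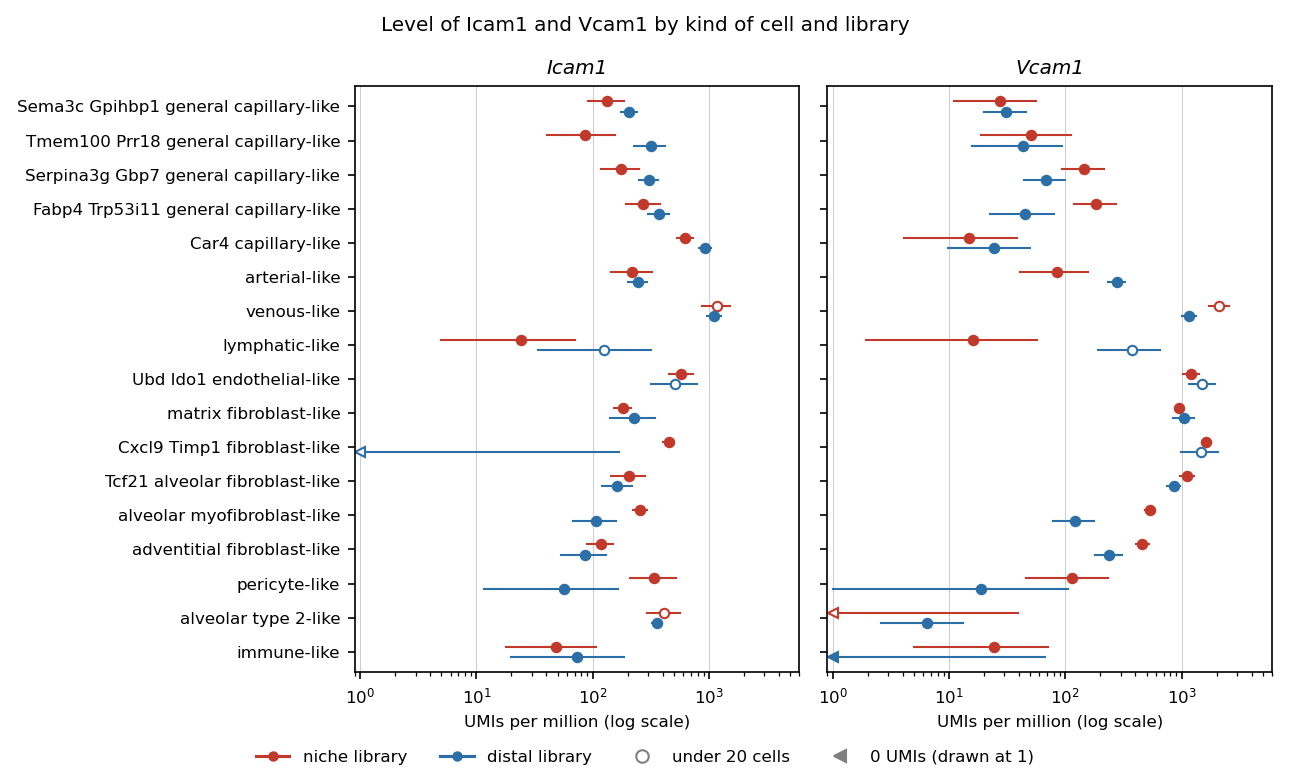
Level of Icam1 (left) and Vcam1 (right) in CPM on a log axis, for each kind of cell, in the niche (red) and distal (blue) library, with 95% counting intervals as lines. Open symbols mark groups under 20 cells and triangles groups with 0 UMIs. Among blood vessel clusters of the distal library Icam1 was highest in venous-like and Car4 capillary-like cells. Distal alveolar type 1-like cells, which are not drawn, stood above them at 2115. Vcam1 was near its floor in Car4 capillary-like cells (14.99 and 24.3) and high in venous-like and most fibroblast-like cells.

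In fibroblast-like cells Icam1 was higher in the niche. The level was 256 (238 to 274) in the niche, from 801 UMIs in 760 cells, and 129 (107 to 155) in distal lung, from 114 UMIs in 365 cells. The log2 ratio was 0.98 (0.70 to 1.28), just under 2-fold. Cells with an Icam1 UMI were 41.1% (312 cells) and 23.6% (86 cells), and 20.5% and 12.4% at equal depth. Niche fibroblast-like cells were deeper, with medians of 3596 and 2168 UMIs.

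The subtypes of fibroblast differed in this. In alveolar myofibroblast-like cells, which carry contractile genes such as Acta2, the Icam1 level was 254 (220 to 290) in the niche and 106 (67.3 to 159) in distal lung, from 210 and 23 UMIs. That ratio was 1.23 (0.63 to 1.94), in a cluster where 5.8% of 5479 genes were called higher. It fell below 2-fold at equal depth (0.78, -0.02 to 1.71), and was 0.81 (0.13 to 1.58) without the cells of finer clusters that were almost all from the niche, described with Vcam1 below. The intervals of the matrix (-0.34, -0.96 to 0.40), Tcf21 alveolar (0.33, -0.33 to 0.98) and adventitial fibroblast-like clusters (0.43, -0.27 to 1.23) held equality. The cluster led by Cxcl9 and Timp1, an interferon-induced chemokine gene and a metalloproteinase inhibitor gene, held 42.2% of the niche fibroblast Icam1 UMIs in 23.9% of the cells, at a level of 449 (402 to 499). The 14 distal cells of that cluster had 0 Icam1 UMIs at a median depth of 1318.5 UMIs. That allows up to 21.4% of cells with a UMI at that depth and says nothing of cells that make the transcript. At Leiden resolution 2, 12 of these 14 lay in another finer cluster than 152 of the niche cells. The niche and distal cells of the cluster were thus of unlike makeup. Without the Cxcl9 Timp1 cluster the fibroblast ratio was 0.55 (0.25 to 0.86). Pericyte-like cells, which wrap capillaries and were kept apart from fibroblasts, had 21 niche and 3 distal Icam1 UMIs, a ratio of 2.40 (0.84 to 4.97), beside 9.36% of 994 genes called higher. One niche cell held 8 of the 21 UMIs, and at equal depth the ratio was 1.23 (-0.78 to 3.94), with 7 and 3 UMIs. Of the 182 niche cells of the Cxcl9 Timp1 cluster, 53 were low in Malat1, a nuclear RNA, and the fibroblast ratio was 1.01 without all low-Malat1 cells.

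In alveolar type 2-like cells, which make surfactant, Icam1 was abundant in both libraries. The 17 niche cells held 39 UMIs (level 410, 292 to 561) and the 216 distal cells 390 UMIs (358, 323 to 395). The log2 ratio of 0.21 (-0.32 to 0.67) held equality, and the niche share of cells with a UMI (82.4%, 14 cells) had an interval of 56.6% to 96.2% beside 69.4% (150 cells) in the distal library. The median depths were 5592 and 5439.5 UMIs. At equal depth the shares were 29.4% and 33.3%. Of Icam2 there were 0 and 40 UMIs, of Vcam1 0 and 7, and of Pecam1 1 and 43 in these cells. The 0 of 17 niche cells allows up to 17.6% of cells with a UMI at this depth.

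Vcam1 stood higher in fibroblast-like than in endothelial-like cells of both libraries, and higher in niche than in distal fibroblast-like cells. The level was 932 (898 to 966) in the niche, from 2921 UMIs, and 531 (484 to 581) in distal lung, from 468 UMIs. The log2 ratio was 0.81 (0.67 to 0.96). Cells with a Vcam1 UMI were 65.1% (495 of 760) in the niche and 37.8% (138 of 365) in distal lung, and 42.8% and 24.5% at equal depth. Among cells that should hold little of it, Car4 capillary-like cells had a Vcam1 UMI in 3.23% and 4.03% of cells at medians of 2669 and 2286.5 UMIs. Of the fibroblast-like cells, 106 of 760 niche and 17 of 365 distal cells had 8 or more Vcam1 UMIs.

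Matrix, Tcf21 alveolar and Cxcl9 Timp1 fibroblast-like cells held the most Vcam1 among the fibroblast clusters. Matrix fibroblast-like cells stood at 954 (890 to 1022) and 1045 (852 to 1268), a ratio of -0.14 (-0.43 to 0.18). At Leiden resolution 2 a finer cluster led by Serpine2 and Cxcl14, with 100 niche and 0 distal cells, took 79 of these niche cells, and without the cells of finer clusters that were all or almost all niche the ratio was -0.01 (-0.33 to 0.32). Tcf21 alveolar fibroblast-like cells stood at 1121 (973 to 1284) and 856 (752 to 969), a ratio of 0.39 (0.12 to 0.66). The Cxcl9 Timp1 cluster stood at 1618 (1529 to 1712) in the niche, above every niche cluster of at least 20 cells. It stood at 1458 (997 to 2058) in 14 distal cells, of which 3 held all 32 UMIs. At Leiden resolution 2, a finer cluster took 152 of its niche and 2 of its distal cells, and these 2 held 31 UMIs. Another took 9 niche and 12 distal cells, so the 2 levels compare sets of cells of unlike makeup. In the niche 142 of the 182 cells of the Cxcl9 Timp1 cluster had a Vcam1 UMI. That cluster gave 41.7% of the niche fibroblast Vcam1 UMIs, and without it the fibroblast ratio was 0.49 (0.34 to 0.65). With the mix of fibroblast clusters held to that of the distal library the ratio was 0.51.

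Alveolar myofibroblast-like and adventitial fibroblast-like cells had the largest niche to distal ratios of Vcam1 among the fibroblast clusters. Adventitial fibroblast-like cells, which surround larger vessels and airways, stood at 459 (402 to 521) and 237 (181 to 304), a ratio of 0.94 (0.54 to 1.38). Alveolar myofibroblast-like cells stood at 535 (486 to 587) in the niche and 120 (78.4 to 176) in distal lung, from 443 and 26 UMIs. The log2 ratio was 2.13 (1.58 to 2.79), or 4.37-fold, in a cluster where 5.8% of genes were called higher and 7.03% lower. Of the niche cells, 89 of 187 (47.6%, 40.3% to 55.0%) had a Vcam1 UMI, and of the distal cells 2 of 108 (1.85%, 0.225% to 6.53%). At equal depth the shares were 24.6% and 2.06%, so the shares stayed apart at a fixed depth. The cells of this cluster were not alike in the 2 libraries. At Leiden resolution 2, 72 of its niche cells and 1 of its distal cells split off as a cluster led by Enpp2, Lag3, Ccl7 and Cxcl10, and 5 and 15 cells as one led by smooth muscle genes such as Cnn1 and Myh11. The 72 niche cells held 328 of the 443 niche Vcam1 UMIs, at a level of 807, and 56 of them (77.8%) had a UMI. Among the 110 niche and 92 distal cells of the main remainder, 32 (29.1%) and 2 (2.17%) had a UMI. Without the split that was almost all niche the ratio was 1.15 (0.54 to 1.84), from 115 and 26 UMIs. The 4.37-fold value thus compares sets of cells of unlike makeup.

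The distal value rested on 1 cell. That cell held 23 of the 26 distal Vcam1 UMIs among 5716 UMIs and 2046 genes, was not called a doublet and had 5 of the 8 alveolar myofibroblast markers and 3 of the 6 matrix fibroblast markers. It also had 2 of the 8 adventitial fibroblast markers, with 40 UMIs against 25 UMIs of the alveolar myofibroblast markers and 11 of the matrix fibroblast markers. Without the top cell of each library the counts were 402 and 3 UMIs and the ratio was 4.88 (3.55 to 7.39). Among cells with 1000 or more genes it was 1.37 (0.83 to 2.03). In the niche the UMIs were spread over many cells: 33 had 1 UMI, 21 had 2 or 3, 21 had 4 to 7, and 14 had 8 or more. Markers of other fibroblasts moved with it. Summed over their lists, the 6 matrix fibroblast markers stood at 1393 in niche and 928 in distal cells of this cluster, the 8 adventitial markers at 2487 and 1450, and the 8 alveolar myofibroblast markers at 11117 and 17746. Their part in the Vcam1 difference was not tested.

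**Figure D2:**
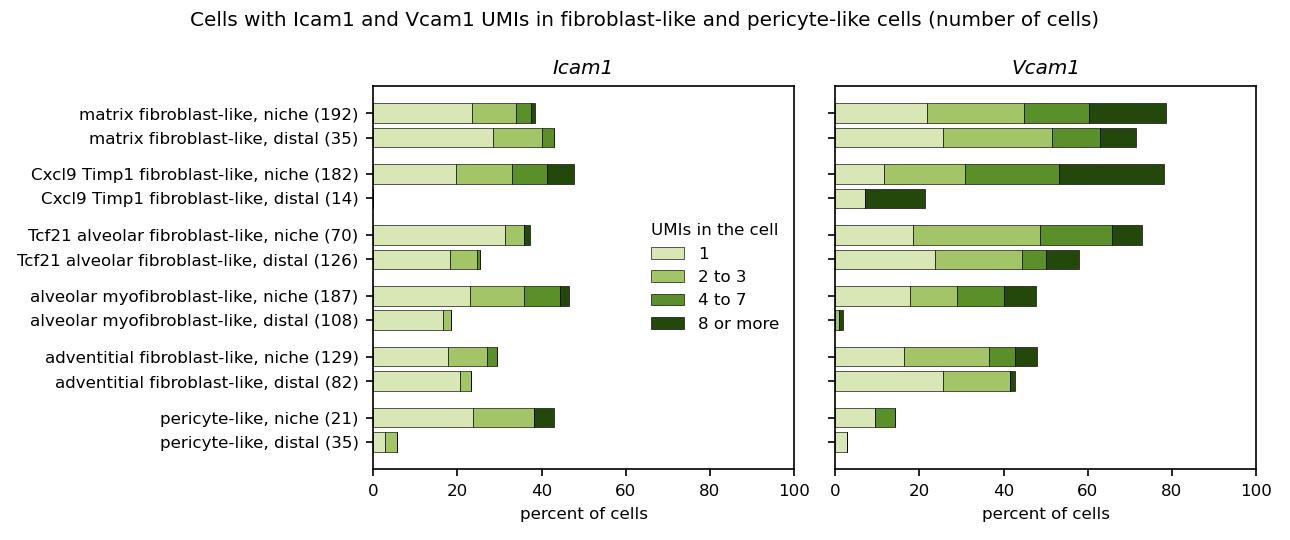
Percent of fibroblast-like and pericyte-like cells with 1, 2 to 3, 4 to 7 or 8 and more UMIs of Icam1 (left) and Vcam1 (right), by cluster and library, with cell numbers in parentheses. The Vcam1 bar of alveolar myofibroblast-like cells reached 47.6% in the niche and 1.85% in distal lung, whereas those of matrix fibroblast-like cells reached 78.6% and 71.4%.

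In endothelial-like cells Vcam1 was found in few cells and sat in a few vessel types. Of the niche cells 70 (14.1%) had a UMI, and of the distal cells 125 (9.56%). The level was 245 (219 to 272) in the niche, from 335 UMIs, and 194 (178 to 212) in distal lung, from 500 UMIs. The ratio of 0.33 (0.13 to 0.53) turned to -0.11 (-0.46 to 0.22) at equal depth per cell, and it was 0.60 (0.34 to 0.85) without the venous-like cluster. Equal depth kept 496 of 497 niche and 1006 of 1307 distal cells and gave each cell the same weight, so the set of cells changed along with the depth. No direction was read from the ratio.

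Venous-like cells and the Ubd Ido1 cluster held most of the niche endothelial Vcam1, and venous-like and arterial-like cells most of the distal. Among endothelial-like cells, the venous-like ones were 3.42% (niche) and 6.58% (distal) and held 29.3% and 43.6% of the UMIs. Their level was 2113 (1715 to 2574) in 17 niche cells, 8 of them with a UMI, and 1155 (1007 to 1319) in 86 distal cells, 27 of them with a UMI. A single niche cell held 48 of the 98 niche UMIs. The Ubd Ido1 cluster, led by genes that interferon is known to induce, was 6.04% of niche endothelial-like cells and held 47.2% of the UMIs, at a level of 1201 (1021 to 1403). Its 11 distal cells stood at 1513 (1160 to 1939) and held 12.4% of the distal UMIs, whereas arterial-like cells held 26.8% of them. Immune markers listed in both tables were at 0 in venous-like cells and in the Ubd Ido1 cluster of both libraries.

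In other vessel types Vcam1 differed between the libraries in both directions. In Fabp4 Trp53i11 general capillary-like cells 10 of 43 niche and 8 of 110 distal cells had a UMI, with 25 and 11 UMIs and a ratio of 1.998 (0.96 to 3.20), beside 2.11% of 3084 genes called higher. In Serpina3g Gbp7 general capillary-like cells 14 of 71 and 15 of 188 cells had a UMI, with 25 and 26 UMIs and a ratio of 1.10 (0.24 to 1.95), beside 1.21% of 4134 genes. At equal depth the ratio of that cluster was 0.93 (-0.26 to 2.07) and the call was lost. Arterial-like cells were lower in the niche, with 10 UMIs in 2 of 49 cells against 134 UMIs in 43 of 232 cells and a ratio of -1.64 (-2.80 to -0.78), beside 1.84% of 4523 genes called lower. Without the top arterial-like cell of each library that ratio was -4.12 (1 and 109 UMIs), and among cells with 1000 or more genes it was -1.001 (-2.18 to -0.11; 10 and 83 UMIs). As a measure of fibroblast transcripts in these cells, Vcam1 stood at 19.8% and 15.6% of the niche fibroblast level in the Fabp4 Trp53i11 and Serpina3g Gbp7 clusters, where the median mesenchymal marker stood at 1.75% and 3.26%. In niche Car4 capillary-like cells Vcam1 was at 1.61% and the median mesenchymal marker at 1.52%. The part of free fibroblast RNA in these Vcam1 values was not tested.

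**Figure D3:**
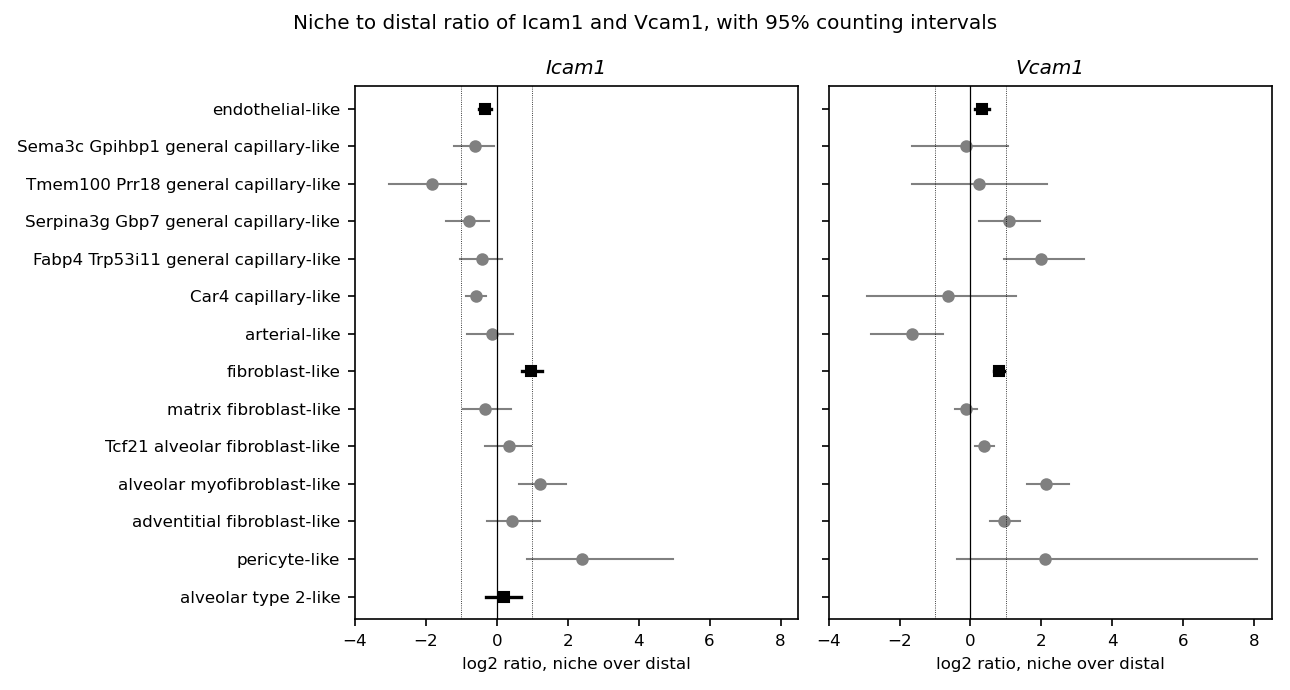
Log2 ratio of niche over distal for Icam1 (left) and Vcam1 (right), with 95% counting intervals, for each class (black squares) and each cluster with at least 20 cells in both libraries (grey circles). Dotted lines mark 2-fold. For Icam1 the endothelial-like class lay at -0.33 and the fibroblast-like class at 0.98, and for Vcam1 the alveolar myofibroblast-like cluster lay at 2.13 and the arterial-like cluster at -1.64.

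Icam2 and Pecam1 marked endothelium in both libraries and differed little between them there. The Icam2 level in endothelial-like cells was 1301 (1241 to 1362) in the niche and 1347 (1303 to 1393) in distal lung, with a UMI in 84.1% and 80.6% of cells and a ratio of -0.05 (-0.13 to 0.03). The Pecam1 level was 1050 (996 to 1105) and 1290 (1246 to 1335), with a UMI in 85.9% and 86.1% of cells and a ratio of -0.30 (-0.39 to -0.21). Of the 4 genes listed in both tables, none was called in endothelial-like cells as a whole, where 1.78% of 9212 genes were called higher and 1.54% lower.

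Car4 capillary-like cells, the large capillary cells that face the alveolar surface, had the highest Icam2 level. It was 3148 (2938 to 3368) in the niche and 3491 (3278 to 3713) in distal lung, with no overlap with any other cluster, and these cells gave 47.1% (niche) and 29.0% (distal) of the endothelial Icam2 UMIs. Other blood vessel clusters lay between 752 and 1113 in the niche and between 615 and 1327 in distal lung. Lymphatic-like cells were lowest in the niche at 415 (310 to 544). For Pecam1 the Car4 capillary-like cells were again first at 1473 and 1652, but the spread was narrower, with other blood vessel clusters of at least 20 cells spanning 699 to 1241 in niche cells and 938 to 1358 in distal lung. Neighbours in that order overlapped within their intervals, except for distal Car4 capillary-like cells and the clusters below the Ubd Ido1 and venous-like levels. Fabp4 Trp53i11 general capillary-like cells were the only endothelial cluster of at least 20 cells in both libraries with Icam2 higher in the niche (857 against 615, ratio 0.48, 0.12 to 0.84). In Tmem100 Prr18 cells Icam2 stood at 851 and 1251 (ratio -0.55, -0.92 to -0.19) and Pecam1 at 1132 and 1172 (-0.05, -0.39 to 0.29).

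**Figure D4:**
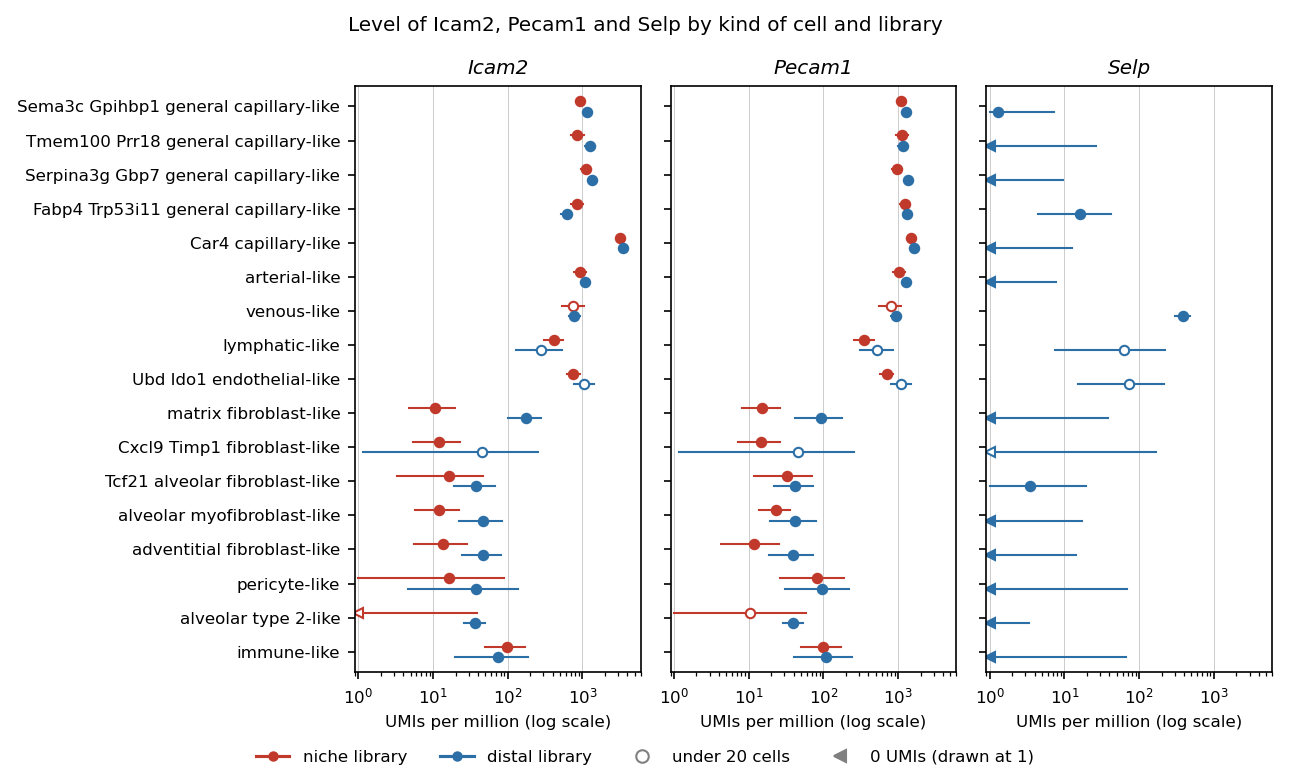
Level of Icam2, Pecam1 and Selp in CPM on a log axis, for each kind of cell, with 95% counting intervals. Niche values are red, distal values blue, open symbols mark groups under 20 cells and triangles 0 UMIs. Icam2 and Pecam1 stood under 200 outside endothelial-like clusters, and Selp, listed in the distal table only, stood at 382 in venous-like cells.

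Outside endothelium Icam2 and Pecam1 had few UMIs. In fibroblast-like cells there were 38 niche and 51 distal Icam2 UMIs (ratio -2.25, -2.90 to -1.62) and 55 and 41 Pecam1 UMIs (-1.41, -2.02 to -0.79). These 2 of 4 genes were called lower in the niche, where 7.17% of 9388 genes were called lower and 3.8% higher. Icam2 there stood at 0.932% of its endothelial level in the niche and 4.29% in distal lung, and Pecam1 at 1.67% and 3.604%. The median of the 10 endothelial class markers stood at 1.95% and 3.86%, none of them at 0, with summed levels of 446 and 703. Immune-like cells were at higher percents, 7.49% and 5.43% for Icam2 and 9.28% and 8.499% for Pecam1. Pericyte-like cells stood at 7.70% and 7.31% for Pecam1. Transcripts that these cells make themselves were not told apart from free RNA. Endothelial-like cells were 34.9% of the niche and 65.8% of the distal cells. The part of free endothelial RNA in these 2 ratios was not tested. In matrix fibroblast-like cells 1 distal cell held 15 of 17 Icam2 UMIs, and the ratio of -4.01 was -1.30 without called doublets; 3.83% of genes were called lower in that cluster. Icam2 was also called lower in alveolar myofibroblast-like cells (-1.94) and Pecam1 in matrix fibroblast-like cells (-2.62, where 1 distal cell held all 9 UMIs). In alveolar type 2-like cells Icam1, Icam2 and Pecam1 were not called, where 4.89% of 4883 genes were called higher and 1.06% lower. Vcam1, with 0 and 7 UMIs there, was under the 20 UMIs needed. Icam2 (0 and 40) and Pecam1 (1 and 43) had too few UMIs in 17 niche cells for the lack of a call to be read.

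Selp was a venous transcript in the distal library. Of its 83 UMIs in 29 barcodes, 82 were in endothelial-like cells, and 72 of these 82 (87.8%) were in venous-like cells. Among venous-like cells 21 of 86 (24.4%, 15.8% to 34.9%) had a UMI, at a level of 382 (299 to 481). Venous-like cells were 6.58% of distal endothelial-like cells. Fabp4 Trp53i11 general capillary-like cells held 4 UMIs, the Ubd Ido1 cluster 3, lymphatic-like cells 2 and Sema3c Gpihbp1 cells 1. Arterial-like, Car4 capillary-like, Tmem100 Prr18 and Serpina3g Gbp7 cells had 0, which in 232 arterial-like cells allows up to 1.29% of cells with a UMI at this depth. P-selectin is also stored in platelets, whose markers Pf4 and Itga2b, the 2 of 7 that both tables list, were at 0 in distal venous-like cells. The niche library had 17 venous-like cells, no Selp value and no Sele value, so neither gene could be compared.

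Genes that act with these molecules were taken as 4 lists. Over all genes measured, 1.78% were called higher and 1.54% lower in endothelial-like cells, 3.8% and 7.17% in fibroblast-like cells, and 4.89% and 1.06% in alveolar type 2-like cells. Among 27 other adhesion and transmigration genes, 20 were measured in endothelial-like cells, and 0 were called higher and 1 lower: Vwf, the von Willebrand factor gene, at -1.33 (-1.63 to -1.04). The median of that list was -0.08, beside -0.04 over all genes. Vwf was among the leading genes of venous-like and of arterial-like cells. Of endothelial-like cells, venous-like ones were 3.42% in the niche and 6.58% in distal lung, and arterial-like ones 9.86% and 17.8%. The part of this mix in the Vwf value was not tested. In fibroblast-like cells 1 of 17 was called higher, the hyaluronan receptor gene Cd44 (1.54, 625 and 60 UMIs), and 3 lower, the junction genes Cdh5 (-1.503), F11r (-1.74) and Esam (-1.29), of which Cdh5 is also one of the endothelial class markers, beside 3.8% and 7.17% of all genes. With at least 50 UMIs per gene F11r was not measured. In alveolar type 2-like cells 2 of 11 were called higher, the nectin gene Pvrl3 (1.79) and the junction gene F11r (1.01), and 1 lower, Plvap (-2.13), which encodes an endothelial protein and had 1 and 75 UMIs.

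The list of cytokine receptors and NF-kB and interferon pathway genes held 29 genes. They were chosen as genes of pathways known to act upstream of inducible adhesion genes, and the list includes inhibitors of NF-kB. Whether any of them acts on the adhesion genes in these cells was not tested. In fibroblast-like cells 28 were measured, and 6 were called higher in the niche and 0 lower, beside 3.8% and 7.17% of all genes, with a median of 0.59 beside -0.14 over all genes. Among them were Nfkbie (3.06, 1.68 to 5.57), which encodes an inhibitor of NF-kB, Tnip1 (2.31, 1.499 to 3.39), an A20-binding protein gene, and Nfkb2 (1.66, 0.998 to 2.48), an NF-kB subunit gene. The mix of fibroblast clusters differed, with the Cxcl9 Timp1 cluster at 23.9% of niche and 3.84% of distal fibroblast-like cells. List calls were not repeated with that mix held or without that cluster, so they do not show a change within a kind of fibroblast. In endothelial-like cells 1 of 29 was called higher, Nfkbie (2.07, 1.16 to 3.12; 32 and 14 UMIs), and 0 lower, with a median of -0.04. The mix of vessel clusters differed too, with the Ubd Ido1 cluster at 6.04% of this class in the niche library but 0.842% in distal lung. List calls were not repeated with the vessel mix held, so they do not show a change within a vessel type. In alveolar type 2-like cells 2 of 19 were called higher, among them Stat3 (1.16, 0.18 to 1.95), and 0 lower, beside 4.89% and 1.06% of all genes, with a median of 0.48 beside 0.23 over all genes. With at least 50 UMIs per gene 1 of 8 was called higher there. The motif letters printed above were chosen to go with this list and link nothing in it to Icam1.

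Of 13 counter-receptors of leukocytes, 3 were listed in both tables and measured in each class. In endothelial-like cells 1 was called higher, the integrin gene Itga9 (3.23, 1.95 to 5.08; 27 and 5 UMIs), and in fibroblast-like and alveolar type 2-like cells 0 were called. Lymphatic-like cells made up 6.84% of the endothelial-like class in the niche library but 0.842% in distal lung. Whether this unlike mix shaped the Itga9 value was not tested. Of 12 membrane anchors and sheddases, which tether adhesion molecules to actin or cut them from the surface, 1 of 10 measured in endothelial-like cells was called higher, the metalloproteinase gene Mmp14 (1.03). In fibroblast-like cells 1 of 11 was called lower, the linker gene Ezr (-1.40), and in alveolar type 2-like cells 1 of 8 higher, the linker gene Msn (1.40), beside 1.78% (endothelial-like, higher), 7.17% (fibroblast-like, lower) and 4.89% (alveolar type 2-like, higher) of all genes.

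Across the 31 cluster and library groups of at least 20 cells, the genes whose levels were most like each member were listed among 6006 genes by Pearson r of log2(level + 10), as a description over groups that share 2 libraries. For Icam1 these were Ano6 (0.72), Paqr7 (0.69) and Emc1 (0.69). For Vcam1 they were Pmepa1 (0.82), C1rb (0.78) and C1ra (0.77). For Icam2 they were Pecam1, Cldn5 and Myct1 (each 0.97), and for Pecam1 they were Egfl7 (0.98), Icam2 (0.97) and Cdh5 (0.97). The highest r of Icam1 was thus below that of the other 3 members.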

How the data were processed

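Single-cell libraries of CD45-negative mouse lung cells were made with the Chromium 3′ chemistry, per the labels' protocols. The submitters' processing notes name mm10, R 3.4.1 and Cell Ranger 2.1.1. Each deposited table holds 1 library as raw UMI counts, genes by cells, which the authors did not normalize. The 6 genes, the lists and the rules were chosen with earlier results of these data known.

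Cells under 500 genes or over 10% mitochondrial UMIs were left out. Each cell was scaled to 10000 UMIs before taking logs. From 2000 variable genes without 69 member and list genes, 20 components and 15 neighbours, Leiden clusters were found at resolution 1 (scanpy 1.11.5, igraph 0.11.9, scikit-learn 1.9.0, Python 3.11.15). Scrublet called 11 niche and 22 distal doublets, which were kept. UMIs were summed per library and cluster. Ratios add 0.5 UMI and have exact 95% conditional binomial intervals, shares have Clopper-Pearson intervals, and levels have exact Poisson intervals (scipy 1.17.1). The limit of a 0 is 3 counts. Equal depth means thinning to 1200 UMIs and leaving out shallower cells, which kept 1422 of 1423 niche and 1634 of 1987 distal cells. Ratios were given for clusters with at least 20 cells in both libraries, and listed genes were measured with at least 20 UMIs. Named genes were the 6 members, up to 4 called genes per list, direction and class, and the 3 most alike genes per member. Not every gene that the rule names is reported here. Alternatives changed the cell filter, scaling, depth, doublets, low-Malat1 cells, top cells, cluster mix and clustering, and 3 chosen after seeing the data left out clusters, 1 of them the finer clusters with under 5 cells of either library. The ratio step was tested on simulated counts.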

Additional observations from a re-analysis of the deposited data

Results flagged for a closer look

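Icam1 lay on opposite sides of equality in the 2 main classes, with log2 ratios of niche over distal of 0.98 in fibroblast-like and -0.33 in endothelial-like cells. Under the alternatives given below, the fibroblast-like ratio ran from 0.34 to 1.07 and the endothelial-like ratio from -0.41 to -0.21. The 0.34 came without the finer clusters that had under 5 cells of either library. In matrix, Tcf21 alveolar and adventitial fibroblast-like cells the Icam1 interval held equality. The difference between the classes was not tested, since each library gives 1 value per class.

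Icam1 passed 2-fold in opposite directions in single clusters, with 1.23 in alveolar myofibroblast-like cells and 2.40 (0.84 to 4.97; 21 and 3 UMIs) in pericyte-like cells against -1.83 in Tmem100 Prr18 general capillary-like cells. At equal depth the alveolar myofibroblast-like ratio was 0.78 and the pericyte-like ratio 1.23 (-0.78 to 3.94), and both calls were lost. This difference was not tested either. Among pericyte-like cells 9 of 21 niche and 2 of 35 distal cells had an Icam1 UMI, at medians of 2629 and 1407 UMIs, and 9.36% of 994 genes were called higher there.

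Vcam1 passed 2-fold upward in Serpina3g Gbp7 (1.10) and Fabp4 Trp53i11 (1.998) general capillary-like cells and in alveolar myofibroblast-like cells (2.13), and downward in arterial-like cells (-1.64). At equal depth the Serpina3g Gbp7 value was 0.93 (-0.26 to 2.07), which ended its call, and without cells of finer clusters that were almost all niche the alveolar myofibroblast-like value was 1.15. The differences between these clusters were not tested. The arterial-like value rests on 2 niche cells with a UMI and the alveolar myofibroblast-like value on 2 distal cells.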

How the results depend on the processing

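Of 54 ratios under up to 13 alternatives, 431 alternative values were computed: 411 lay within the counting interval of the reported ratio, 18 lay outside it, and 2 changed the sign of a ratio whose interval excluded equality. A further 11 changed the sign of a ratio whose interval held equality. Among the values computed, the 2 ratios that reversed were Vcam1 in endothelial-like cells at equal depth (-0.11) and Icam1 in Sema3c Gpihbp1 cells with at least 1000 genes (0.20). An alternative that left 0 UMIs in 1 library gave no value, so leaving out top cells gave values for 50 of the 54 ratios. Pecam1 in matrix fibroblast-like cells, called at -2.62, had none there, since 1 distal cell held all 9 distal UMIs. That call thus rests on 1 distal cell. Equal depth also moved Icam2 in fibroblast-like cells to -1.38, Pecam1 in alveolar type 2-like cells to 1.16 (1 and 8 UMIs), and the niche and distal shares of cells to 25.2% and 26.8% (Icam1, endothelial), 20.5% and 12.4% (Icam1, fibroblast) and 42.8% and 24.5% (Vcam1, fibroblast), and the niche endothelial Vcam1 share to 10.1%. With the cluster mix held to the distal one, Icam2 in endothelial-like cells was -0.21 and Icam1 and Vcam1 in fibroblast-like cells were 0.69 and 0.51. Leaving out the Cxcl9 Timp1 cluster (0.55 and 0.49) or the venous-like cluster (Vcam1, 0.60) was chosen after seeing the data. So was leaving out the finer clusters at Leiden resolution 2 with under 5 cells of either library, which gave 0.34 for both Icam1 and Vcam1 in fibroblast-like cells and 1.15 for Vcam1 in alveolar myofibroblast-like cells. Vcam1 in alveolar myofibroblast-like cells was 1.37 with at least 1000 genes and 4.88 without the top cells. Of 12 called ratios, 6 lost the call under at least 1 alternative: at equal depth Vcam1 in Serpina3g Gbp7 (0.93), Icam1 in pericyte-like (1.23) and alveolar myofibroblast-like (0.78), Icam2 in alveolar myofibroblast-like (-1.60) and Pecam1 in matrix fibroblast-like cells (-1.65), and without doublets Icam2 in matrix fibroblast-like cells (-1.30). With at least 50 UMIs per gene, 0 counter-receptors and 0 NF-kB list genes were called higher in endothelial-like cells, and with median ratio scaling, which moved the 3 classes by at most 0.10, 1 membrane anchor was called higher in fibroblast-like cells. Using the 6 genes and the listed genes in clustering changed the class of 1 of 3410 cells, which says nothing of clusters within a class. Those clusters did change. Genes of alveolar myofibroblast-like cells then led clusters of 116 niche and 107 distal cells and of 72 and 1 cells. Leading genes of the venous-like and Fabp4 Trp53i11 clusters shared a cluster of 49 and 174 cells. Ratios of single clusters were not computed on that clustering. No paired analysis was possible because each group is 1 library. Distal cells are shallower, which limits genes with few UMIs there.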

Other observations

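Alveolar type 1-like cells, the flat gas exchange epithelium, had the highest Icam1 level of any cluster of at least 20 cells. All 29 distal cells had an Icam1 UMI, with a median of 6 UMIs per cell and a level of 2115 (95% counting interval 1813 to 2453), which lay above distal venous-like cells without overlap. The 8 niche cells held 24 UMIs (1324, 848 to 1970), 7 of them with a UMI. No Vcam1 UMI was found in the 29 distal cells, which allows up to 10.3% of cells with a UMI at this depth. The mixed epithelial cluster, led by Scgb1a1 and keratin genes, stood at 57.3 for Icam1 and 6.74 for Vcam1 in its 69 niche cells.

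Icam1 and Vcam1 UMIs were found together in single cells of several clusters. The number expected if the genes were found independently of each other was exceeded in some clusters and not in others. At equal depth, 33 of 70 distal venous-like cells had an Icam1 UMI, 20 a Vcam1 UMI and 16 both, against 9.43 expected. In niche alveolar myofibroblast-like cells 39 of 187 had Icam1, 46 Vcam1 and 18 both, against 9.59. These cells were a mix of finer clusters that differed in both genes. Without thinning, 65.3% of the 72 niche cells led by Enpp2 had an Icam1 and 77.8% a Vcam1 UMI. In the 110 niche cells of the main remainder the shares were 35.5% and 29.1%. The part of this mix in the number with both was not tested. In niche Car4 capillary-like cells 46 of 93 had Icam1, 1 Vcam1 and 0 both. With 0.49 expected there, this 0 cannot be read. Cells with both were fewer than expected in niche Tcf21 alveolar fibroblast-like cells (5 against 6.69), among others. Niche Fabp4 Trp53i11 general capillary-like cells had 1 against 1.63. These differences were not tested.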
